A study of Mus musculus with 9 samples.

Results

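The genes described here are the 139 long intergenic noncoding RNA (lincRNA) genes with a mean level of at least 1 CPM in mouse calvarial cells before differentiation and after 7 days of it. CPM gives the reads on a gene as a share of all reads on genes in its library, and 3 reads were worth 0.192 to 0.387 CPM in the day 0 and day 7 libraries. The members were chosen by their lincRNA annotation in the deposited table and by their mean CPM over its 6 libraries, so their levels are a description and their presence is not a finding. The table listed 40548 genes, 2564 of them lincRNAs, and 966 of these had reads in at least 1 of the 6 libraries. The level was met by 142, and H19, Meg3 and Gm26917 were set aside by the rule. The members just inside the limit were Gm10710, Gm3830 and Gm26888 with means of 1.00, 1.03 and 1.04 CPM, and the lincRNAs just outside it were Gm26773, 1810044D09Rik and 1700007L15Rik with 0.982, 0.977 and 0.976 CPM. A line in the separate day 4 table existed for 138 members, with Dancr as the exception.

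The study followed osteoblast differentiation in primary calvarial cells, which are released from the skull bones of newborn mice by enzymes and can become bone-forming osteoblasts. The labels give C57BL/6 pups at postnatal day 2 to 3, whereas the methods name C57BL/6J, a wider range of ages and both sexes. Day 0 cells were grown to confluency without differentiation, and day 4 and day 7 cells were then kept in mineralization medium, to which β-glycerol phosphate and ascorbic acid had been added. The labels name no transgene or other treatment for any stage, and each had 3 libraries from biological replicates. Mineralized cells were released with collagenase I before trypsin and the others with trypsin alone, so that stage and dissociation cannot be told apart.

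lincRNAs are RNA polymerase II transcripts outside protein-coding genes, mostly capped, spliced and polyadenylated like messenger RNA but not translated into a protein. Some act as RNA: Malat1 and Neat1 are retained in nuclear bodies, Xist silences an X chromosome, and others bind splicing factors or microRNAs. Others are best known for what their introns or exons hold, since small nucleolar RNAs (snoRNAs), which guide the modification of ribosomal RNA, and microRNAs, which repress messenger RNAs, are cut out of such host transcripts. A change of a host transcript does not by itself give the level of the small RNA inside it.

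The sequences below show what several of the members carry. Miat, the lincRNA with the largest difference between the stages, is known for repeats of the splicing branch point letters. The sequence TACTAAC was searched on the sense strand of the longest annotated transcript of each of 138 members, 131 of which held no copy and 6 of which held 1. Only the Miat transcript, of 9163 bases, held more, with 6 copies, and 3 of them lie in bases 4935 to 5078, printed with the copies in capitals. The second entry is the stretch of 1700020I14Rik, also known as Cyrano, that pairs with miR-7. It spans bases 2935 to 2959 of the transcript, pairs with 22 of the 23 bases of miR-7a-5p and leaves 3 of its own bases unpaired, and the capitals mark the match to the seed.
Miat bases 4935 to 5078: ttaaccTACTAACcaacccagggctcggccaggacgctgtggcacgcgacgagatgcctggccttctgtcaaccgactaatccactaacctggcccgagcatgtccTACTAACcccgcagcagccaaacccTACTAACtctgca
1700020I14Rik site: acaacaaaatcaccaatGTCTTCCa
miR-7a-5p: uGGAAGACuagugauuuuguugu

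Of the 138 members with a record in the GENCODE M21 annotation, 7 hold a snoRNA gene on the same strand. Dancr had no record there, so whether it hosts a small RNA was not assessed. Box C/D snoRNAs carry a box C near the 5′ end and a box D near the 3′ end, here in capitals as ATGATGA and CTGA, and those of the 3 hosts that changed most are printed because their hosts moved in opposite directions. Snord99 lies in Snhg12 (chr4:132310691-132310764, plus strand), Snord87 in Snhg6 (chr1:9942463-9942549, minus strand) and Snord123 in Snhg18 (chr15:32241853-32241923, minus strand).
Snord99: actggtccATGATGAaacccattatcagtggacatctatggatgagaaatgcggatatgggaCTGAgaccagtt
Snord87: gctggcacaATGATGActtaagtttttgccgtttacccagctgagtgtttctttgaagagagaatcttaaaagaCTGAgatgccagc
Snord123: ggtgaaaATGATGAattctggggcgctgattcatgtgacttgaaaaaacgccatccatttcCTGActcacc

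A further 9 members, including the snoRNA hosts Snhg20 and 2900076A07Rik, hold microRNA genes. Of 30 such genes, 29 were found in the RefSeq microRNA table of GRCm38.p6, with 53 mature sequences and 47 different seeds, the bases 2 to 8 through which a microRNA finds its targets. A seed was held by more than 1 mature sequence in 5 cases. The sequences printed are those of the hosts Mirg, 6720427I07Rik, Mir17hg and A430106G13Rik, with the seed in capitals. miR-453 and miR-496a-5p of Mirg share a seed, as do the let-7 members of 6720427I07Rik, miR-17-5p with miR-20a-5p, and miR-19a-3p with miR-19b-3p of Mir17hg. miR-181b-5p lies in A430106G13Rik.
miR-453: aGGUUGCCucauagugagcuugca
miR-496a-5p: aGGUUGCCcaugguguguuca
let-7a-5p: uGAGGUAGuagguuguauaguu
let-7f-5p: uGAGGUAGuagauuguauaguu
let-7d-5p: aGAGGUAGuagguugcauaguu
miR-17-5p: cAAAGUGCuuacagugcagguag
miR-20a-5p: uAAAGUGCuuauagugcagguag
miR-19a-3p: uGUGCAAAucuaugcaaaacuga
miR-19b-3p: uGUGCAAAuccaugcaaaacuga
miR-181b-5p: aACAUUCAuugcugucgguggguu

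Reads on genes numbered 7741204 to 14013219 per library at day 0, 32820610 to 37306090 at day 4 and 10675858 to 15622755 at day 7. Osteoblast markers rose, with 11 of 12 higher at day 7 and none lower, and their summed RPKM, which divides CPM by the length of the gene model in kilobases, went from 4498–5272 at day 0 to 14184–16955 at day 4 and 14781–18638 at day 7. All 9 macrophage markers tested rose (summed RPKM 45.7–77.3, then 87.6–96.8 and 85.1–114), 10 of 12 proliferation genes fell (170–253, 98.0–133 and 123–147), and endothelial markers summed to at most 0.479 RPKM in any library, with Emcn and Tie1 at 0. In bulk RNA, fewer cells of a type and less RNA per cell cannot be told apart, and the part of these cell types in the results below was not tested. Day 0 replicate 3, the shallowest library, held the lowest of the 3 day 0 values in 104 of the 139 members and in 81.6% of all genes tested. Its CPM were a median of 0.705 times the mean of the other 2 day 0 libraries over members and 0.784 times over all genes, and its large share of the rRNA-like row Gm42418 is described further down.

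About as many lincRNAs rose as fell by day 7, and a few changed by far more than the rest. The share of rises was close to that over all genes. The share of falls was smaller, but the members also had lower levels, with a median mean CPM of 2.85 against 24.9 over all genes. Shares were not compared at matched levels, and of the members at 10 CPM or more, 23.8% rose and 23.8% fell. Day 7 was tested against day 0 with limma on log2(CPM + 0.5) over 12712 genes with a Benjamini-Hochberg adjusted p of 0.05 as the threshold. Of the members, 17 were higher at day 7 (12.2%, against 12.6% of all genes tested), 20 were lower (14.4%, against 18.6%) and 102 did not pass. The median log2 fold change was −0.09 over members and −0.11 over all genes, with a range over members from −2.29 to 5.63. A change of more than 2-fold on this scale was reached by 11 of the members that rose, among them Miat, Neat1 and Snhg18, and by 6 of those that fell, among them Mirg and Trp53cor1. The 6 include Gm42418, whose day 0 and day 7 libraries overlapped. For these counts of 2-fold changes, no share over all genes was computed. The level rule itself used these libraries: 8 members had a mean under 1 CPM at day 0 and were admitted through day 7, and 13 had a mean under 1 CPM at day 7 and were admitted through day 0. A difference between the stages was thereby favored in them, and their calls, 4 rises (BC043934, Gm19705, Gm17315 and Gm10710) and 3 falls (Gm26890, Gm26888 and Gm3830), support nothing beyond their own values. All 4 of these rises and the fall of Gm26890 are among the changes of more than 2-fold. Before adjustment, a p below 0.05 was reached by 20 higher and 27 lower members. Scaling by the median of ratios moved the median of all genes up by 0.10. It gave 28 higher members (20.1%, against 22.4% of all genes) and 18 lower ones (12.9%, against 20.5%). The share of higher calls among called members went from 45.9% to 60.9%. Calls over all genes moved the same way, from 1602 higher and 2369 lower to 2843 higher and 2612 lower.

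Counted by libraries alone, all 3 day 7 values lay above all 3 day 0 values in 23 members (16.5%, against 16.9% of all genes) and below them in 24 (17.3%, against 25.4%). Of the 37 members past the threshold, 33 had stages that did not overlap, and 22 passed in the same direction under each of 19 other settings of the test. The number of lower members was 20 with all libraries, 11 without day 0 replicate 1, 12 without day 0 replicate 2, 13 without day 7 replicate 1 or 2, and 30 without day 0 replicate 3, while that of higher members stayed between 13 and 19. No share over all genes was computed for the calls with a library left out. Leaving out any day 0 or day 7 library raised the number of members whose stages did not overlap, since fewer libraries separate more easily, from 47 (33.8%, against 42.3% of all genes) to between 52 and 61, or to 74 without day 0 replicate 3 (53.2%, against 68.9% of all genes). The calls rest mostly on the trend of variances over all genes, with 42.9 prior against 4 residual degrees of freedom, and the smallest p of an exact permutation test of 3 against 3 libraries is 0.1.

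**Figure D1:**
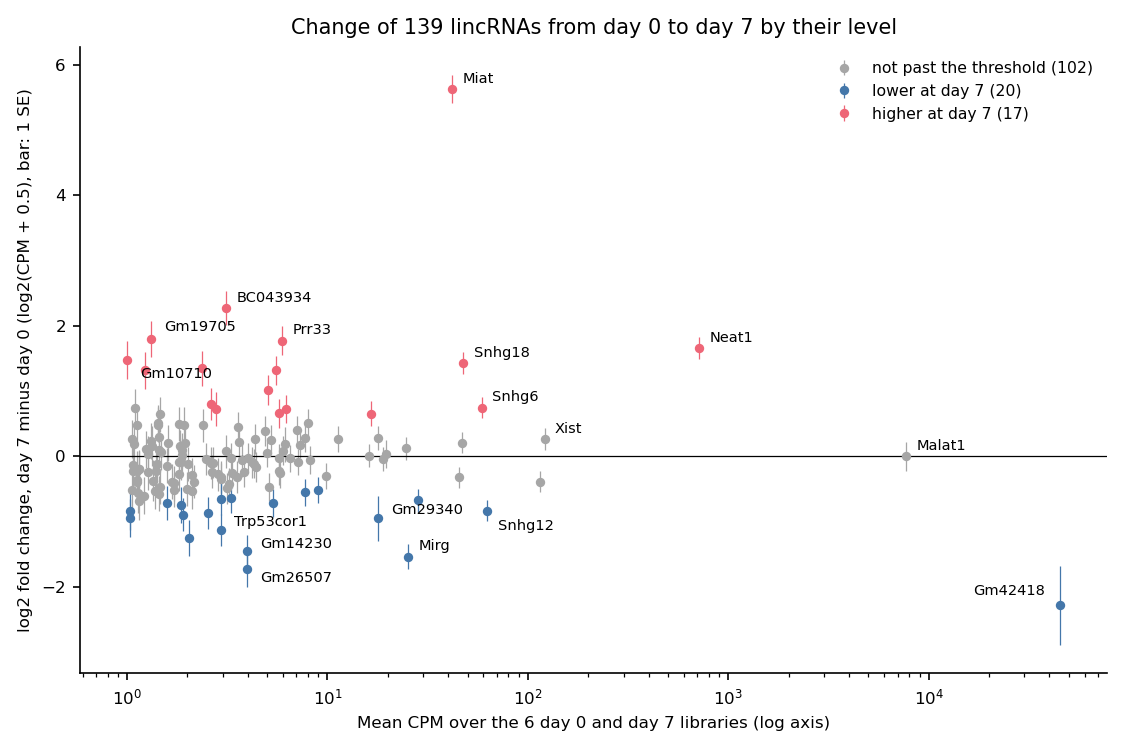
Day 7 minus day 0 difference (vertical axis, log2(CPM + 0.5) scale, bars of 1 SE) against the mean CPM over the 6 libraries (horizontal log axis) of the 139 lincRNAs, 17 of them higher, 20 lower and 102 not past the threshold. Most points lie below 10 CPM and near 0, Miat stands at 5.63, and Gm42418 at the right has the longest error bar (0.61).

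Malat1 and Neat1 lie next to each other on chromosome 19, are both retained in the nucleus, and differed in their course. Neat1, the scaffold of the nuclear bodies called paraspeckles (chr19:5824708-5845478, minus strand, a single exon), measured 355, 409 and 276 CPM at day 0, 1229, 1473 and 1481 CPM at day 4 and 1197, 942 and 1115 CPM at day 7. Each library of day 4 and day 7 lay above each of day 0, and day 4 lay above day 7. Per length, the RPKM was 16.7 ± 3.2, 67.1 ± 6.9 and 52.2 ± 6.3 at the 3 stages in turn (SD, n = 3). Neat1 rose 3.13-fold in mean CPM by day 7 (log2 fold change 1.66 ± 0.17 SE, adjusted p = 1.62e-11) and passed in each of the 19 other settings. Its protein-coding neighbour Frmd8, upstream on the same strand, had a log2 fold change of −0.35 ± 0.16 (adjusted p = 0.093).

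Malat1, the RNA of nuclear speckles (chr19:5795690-5802672, minus strand), was the second most abundant member, with 9148, 8760 and 5473 CPM at day 0, 8970, 9149 and 10085 CPM at day 4 and 7717, 6849 and 8194 CPM at day 7. The stages overlapped between day 0 and day 7. Its log2 fold change of −0.01 ± 0.22 (adjusted p = 0.988) changed sign between settings and passed in none of them. Of 11 genes for paraspeckle proteins, none rose and 3 fell, among them Sfpq (−0.52 ± 0.16, adjusted p = 0.0103) and Smarca4 (−0.47 ± 0.15, adjusted p = 0.013), with a median log2 fold change of −0.30 over the list against −0.11 over all genes. Over all genes tested, 18.6% fell. The calls of Sfpq and Smarca4 each held in 16 of the 19 other settings.

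Miat, a nuclear lincRNA first known from a locus linked to myocardial infarction and from neurons, showed the largest change of all members. Miat (chr5:112213228-112229395, minus strand) measured 1.85, 1.00 and 0.775 CPM at day 0, from 26, 12 and 6 reads, against 60.9, 99.0 and 66.7 CPM at day 4 and 80.4, 64.1 and 104 CPM at day 7. The day 4 and day 7 libraries overlapped with each other and lay far above each day 0 library. Mean CPM was 62.4-fold higher at day 4 and 68.3-fold higher at day 7 than at day 0, and the level per length was 0.130 ± 0.061, 8.13 ± 2.2 and 8.90 ± 2.1 RPKM at the 3 stages. The fitted log2 fold change was 5.63 ± 0.21 (adjusted p = 2.49e-27), in the same direction and past the threshold in each of the 19 other settings. Of the stretches of 50 bases in its exons, 24.2% also occur in other genes on either strand, where overlapping genes count too. The antisense gene Gm26953 overlaps it, as do Gm27357, Gm27627, Gm27882 and Gm27998 on the same strand, so part of the reads could belong elsewhere.

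**Figure D2:**
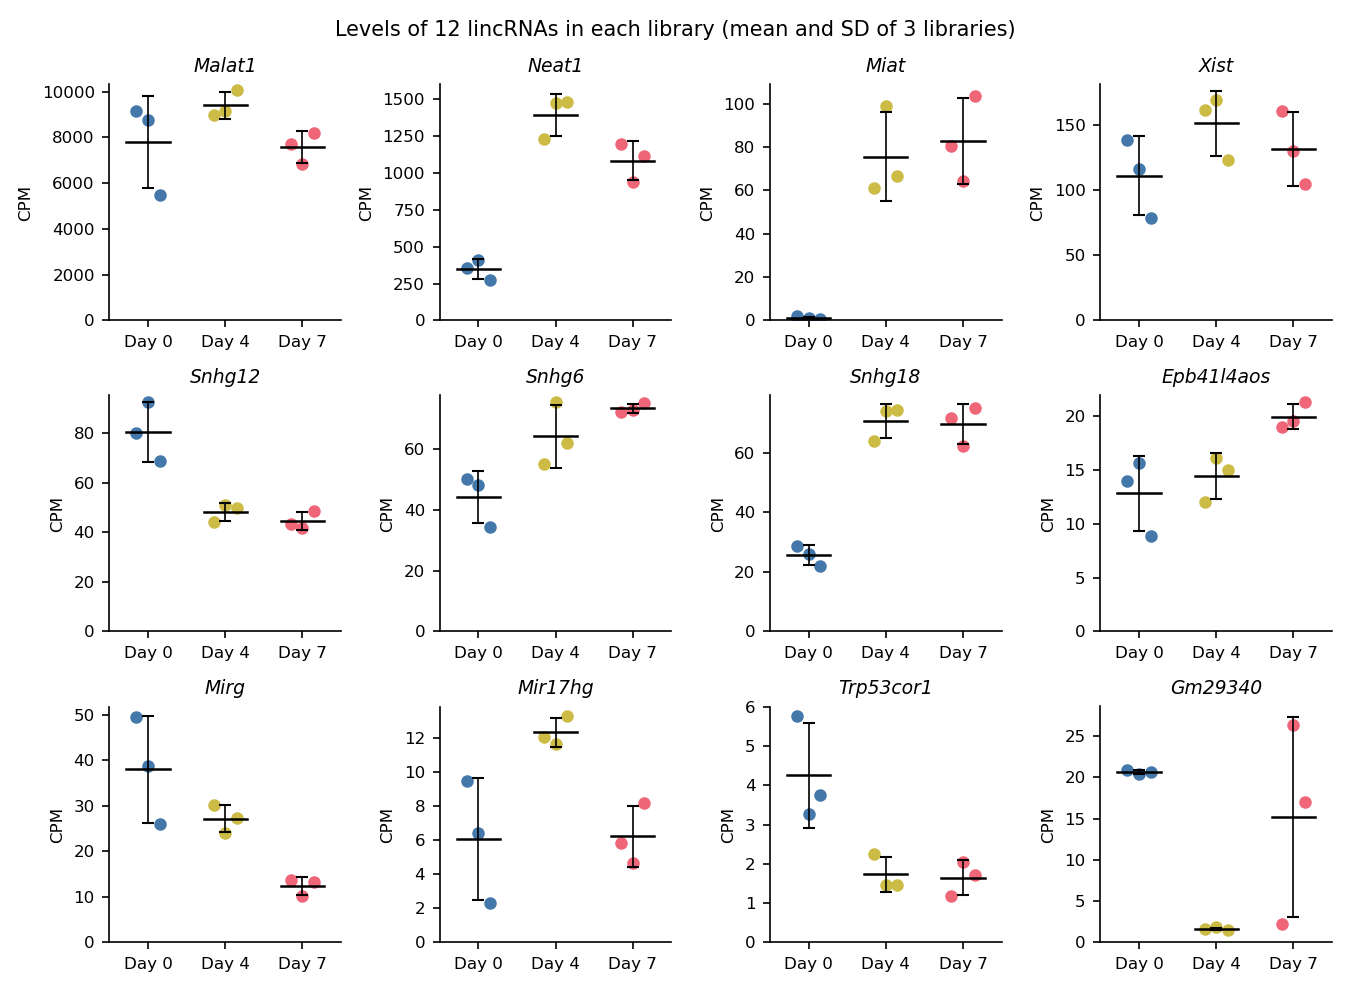
CPM of 12 lincRNAs in each of the 9 libraries (points, 3 per stage, vertical axes from 0), with the mean and SD of each stage. Miat lies between 0.775 and 1.85 CPM in the day 0 libraries and between 60.9 and 104 CPM in the others, Mir17hg is highest at day 4, and a single day 7 library of Gm29340 lies near its day 4 values.

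The 7 snoRNA hosts did not move together: 3 rose, 1 fell and 3 did not pass, with a median log2 fold change of 0.51. Over all genes tested, 12.6% rose and 18.6% fell, and 7 hosts are too few to be set against these shares. Snhg12 (chr4:132308623-132311024, plus strand), which holds Snord99 and several H/ACA snoRNAs, was the host that fell, with 80.3, 92.7 and 68.7 CPM at day 0, 44.1, 51.1 and 49.9 CPM at day 4 and 43.3, 41.8 and 48.7 CPM at day 7. Each later library lay below each day 0 library. Its level per length went from 49.5 ± 7.4 to 27.4 ± 2.3 RPKM at day 7, with a log2 fold change of −0.84 ± 0.16 (adjusted p = 3.91e-05), and it remained the only lower host in each of the 19 other settings.

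Snhg18 (chr15:32240565-32244662, minus strand), the host of Snord123, measured 28.8, 26.2 and 22.1 CPM at day 0, 64.2, 73.9 and 74.3 CPM at day 4 and 71.7, 62.3 and 75.1 CPM at day 7. It rose 2.71-fold (1.43 ± 0.16, adjusted p = 6.30e-10), with day 4 already as high as day 7. Sema5a, the protein-coding gene that starts 148 bases away in the other direction, had a log2 fold change of −0.40 ± 0.17 (adjusted p = 0.0611). Snhg6 (chr1:9941959-9944118, minus strand), the host of Snord87, measured 49.99, 48.0 and 34.5 CPM at day 0, 55.0, 75.5 and 61.9 CPM at day 4 and 72.1, 72.8 and 75.0 CPM at day 7. Its later libraries lay above those of day 0 without exception, for a rise of 0.74 ± 0.16 (adjusted p = 2.88e-04), with an exon of Mcmdc2 on the opposite strand.

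Epb41l4aos (chr18:33794892-33795986, plus strand), whose span holds the snoRNA gene Gm23639, had 13.98, 15.6 and 8.91 CPM at day 0, 12.03, 16.2 and 15.03 CPM at day 4 and 19.03, 19.6 and 21.3 CPM at day 7. Here day 0 and day 4 overlapped and only day 7 stood above both, with a rise of 0.65 ± 0.19 (adjusted p = 0.00639). The hosts Snhg20, 2900076A07Rik and 2700038G22Rik had log2 fold changes of 0.26, 0.51 and 0.07 (adjusted p = 0.336, 0.0626 and 0.862). Of 41 small RNA genes inside host members, 35 had a line of their own in the tables, 18 of these were listed at 0 in each library, and only Snora16a reached 1 CPM, with at most 1.11 CPM. Of 13 genes for snoRNA-binding proteins, 2 rose and none fell, Nop10 by 0.54 ± 0.16 (adjusted p = 0.00876) and Nhp2 by 0.50 ± 0.17 (adjusted p = 0.0168). Over all genes tested, 12.6% rose. The calls of Nop10 and Nhp2 held in 17 and 16 of the 19 other settings.

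Among the 9 microRNA hosts, 1 rose and 1 fell (11.1% each, against 12.6% and 18.6% of all genes tested). Mirg, the host of a large microRNA cluster in the imprinted Dlk1-Dio3 region (chr12:109729764-109749460, plus strand), measured 49.5, 38.7 and 26.0 CPM at day 0, 30.1, 24.1 and 27.4 CPM at day 4 and 13.8, 10.2 and 13.3 CPM at day 7. Day 4 overlapped with day 0, and day 7 lay below both. The level per length went from 5.22 ± 1.6 to 1.70 ± 0.27 RPKM (log2 fold change −1.54 ± 0.19, adjusted p = 5.32e-09), and the call held in each of the 19 other settings. Its cluster includes the printed miR-453 and miR-496a-5p.

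Mir17hg, the host of the miR-17-92 cluster known for cell growth (chr14:115042879-115046727, plus strand), measured 9.49, 6.44 and 2.32 CPM at day 0, 12.1, 11.7 and 13.3 CPM at day 4 and 5.86, 4.68 and 8.19 CPM at day 7. Its day 4 libraries lay above those of both other stages, while day 7 and day 0 overlapped (0.18 ± 0.27, adjusted p = 0.65). 6720427I07Rik, whose span holds 3 let-7 genes, had 27.0, 22.2 and 10.5 CPM at day 0, 19.5, 22.9 and 24.8 CPM at day 4 and 16.9, 17.3 and 23.3 CPM at day 7. It showed overlapping stages throughout, with 0.04 ± 0.21 (adjusted p = 0.916). Ftx, 6030443J06Rik and E130102H24Rik had −0.04, −0.50 and −0.23 (adjusted p = 0.92, 0.139 and 0.613).

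A430106G13Rik, which holds Mir181b-1 (chr1:137966531-137969918, plus strand), measured 2.92, 2.26 and 1.03 CPM at day 0, 2.89, 3.80 and 2.88 CPM at day 4 and 3.59, 3.37 and 3.58 CPM at day 7. Its day 7 libraries lay above day 0, with 0.72 ± 0.26 (adjusted p = 0.028), but the call held in only 14 of 19 other settings and was lost without day 0 replicate 3 (0.38), day 7 replicate 1 (0.71) or day 7 replicate 3 (0.71). Of 8 tested genes that process or use microRNAs, none rose and 4 fell, Ago1 by 0.62 on the log2 scale (adjusted p = 0.00226), Ago3 by 0.54 (adjusted p = 0.0094), and Dicer1 and Drosha by 0.44 each (adjusted p = 0.0292 and 0.0386). The median of this list was −0.37, against −0.11 over all genes, of which 18.6% fell. The calls held in 18, 17, 12 and 11 of the 19 other settings.

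Xist, which coats the inactive X chromosome of female cells, had 138, 116 and 78.4 CPM at day 0, 161, 169 and 123 CPM at day 4 and 160, 129 and 104 CPM at day 7. The stages overlapped (0.26 ± 0.17, adjusted p = 0.269), and the 4 Y-linked genes did not pass either, with summed RPKM of 23.6–28.8 at day 0 and 20.8–27.9 at day 7. The level of Xist per length was 6.18 ± 1.7, 8.42 ± 1.4 and 7.32 ± 1.6 RPKM, and its antisense partner Tsix cannot be told apart from it without the strand of the reads. 1700020I14Rik, known for binding miR-7 at the printed site (chr2:119594297-119607502, plus strand), measured 148, 152 and 97.0 CPM at day 0, 113, 104 and 106 CPM at day 4 and 101, 93.5 and 102 CPM at day 7. Its day 7 libraries lay below those of day 4 and overlapped with the lowest of day 0, and −0.39 ± 0.16 missed the threshold (adjusted p = 0.0608) but passed in 9 of 19 other settings.

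Trp53cor1, also called lincRNA-p21 and known as a p53 target next to Cdkn1a (chr17:29057430-29079179, minus strand), measured 5.78, 3.26 and 3.74 CPM at day 0, 2.25, 1.47 and 1.47 CPM at day 4 and 1.17, 2.06 and 1.73 CPM at day 7. Each later library lay below each day 0 library, with a log2 fold change of −1.13 ± 0.25 (adjusted p = 3.60e-04). Of the stretches of 50 bases in its exons, 38.4% also occur in other genes, where AC167363.1 and Gm27599, which overlap it on the opposite strand, count too. Lncpint, another p53 target, had 3.00, 2.84 and 2.97 CPM at day 0 and 4.39, 4.03 and 4.16 CPM at day 7. The stages of Lncpint did not overlap, but 0.45 ± 0.23 missed the threshold (adjusted p = 0.129). Pvt1, downstream of Myc, had 0.12 ± 0.18 (adjusted p = 0.661).

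Dancr, described as a brake on osteoblast and epidermal differentiation, measured 6.85, 5.85 and 4.65 CPM at day 0 and 6.00, 4.77 and 7.87 CPM at day 7, and its stages overlapped (0.09 ± 0.22, adjusted p = 0.807). Bvht, known from cardiac lineage commitment, had 4.92, 5.18 and 2.71 CPM at day 0, 7.28, 7.55 and 8.40 CPM at day 4 and 6.15, 5.34 and 5.12 CPM at day 7. It was highest at day 4 in each library, and its day 7 difference of 0.38 ± 0.23 did not pass (adjusted p = 0.213).

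After Miat, the largest rises were found in members about which little is known. BC043934 (chr9:96435783-96438138, minus strand) measured 1.07, 0.836 and 0.387 CPM at day 0, 5.36, 5.63 and 5.46 CPM at day 4 and 6.37, 4.59 and 5.501 CPM at day 7, a rise of 2.27 ± 0.26 (adjusted p = 4.70e-10). Gm19705 (chr1:136670769-136690804, plus strand) went from 0.214, 0.334 and 0.387 CPM to 2.12, 2.90 and 1.98 CPM at day 7, with 1.89, 1.58 and 2.27 CPM at day 4 (1.80 ± 0.28, adjusted p = 1.04e-06). Both met the limit of 1 CPM only through their day 7 libraries, and both shared the course of Miat, with day 4 and day 7 overlapping above day 0. Prr33 (chr7:142491074-142506771, minus strand) had 2.496, 2.34 and 2.32 CPM at day 0, 6.70, 8.17 and 10.1 CPM at day 4 and 10.1, 7.21 and 11.2 CPM at day 7 (1.77 ± 0.22, adjusted p = 5.64e-09). It overlaps Lsp1, which also rose (1.09 ± 0.15, adjusted p = 1.16e-07).

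3300005D01Rik and Gm10710 were higher at day 4 than at either other stage. 3300005D01Rik measured 0.927, 1.00 and 1.29 CPM at day 0, 5.08, 5.17 and 5.99 CPM at day 4 and 2.20, 4.87 and 3.84 CPM at day 7, a rise of 1.34 ± 0.26 by day 7 (adjusted p = 6.39e-05). Gm10710, inside Dchs2, rested on 3, 2 and 4 reads at day 0 (0.214, 0.167 and 0.516 CPM), with 5.602, 8.52 and 7.29 CPM at day 4 and 2.05, 1.59 and 1.47 CPM at day 7 (1.48 ± 0.29, adjusted p = 6.39e-05). It met the limit of 1 CPM only through its day 7 libraries. With so few reads at day 0 the size of its fold is uncertain, and 31.9% of its stretches of 50 bases occur in other genes, where the overlapping Dchs2 counts too.

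Besides Mirg, members with large falls were Gm26507, Gm14230 and Gm26890. Gm26507 (chr18:58210252-58221885, plus strand) measured 7.77, 7.36 and 3.87 CPM at day 0, 2.95, 1.90 and 2.36 CPM at day 4 and 2.85, 1.22 and 0.832 CPM at day 7, a fall of 1.74 on the log2 scale (SE 0.27, adjusted p = 1.14e-06). It lies opposite Fbn2, the gene of fibrillin 2 in elastic microfibrils, which fell further (−2.32 ± 0.17, adjusted p = 9.89e-16). Gm14230 (chr2:156833049-156839892, minus strand), which starts 115 bases from Tgif2, measured 5.56, 6.35 and 6.20 CPM at day 0, 3.62, 2.60 and 2.75 CPM at day 4 and 2.12, 1.404 and 2.24 CPM at day 7, and was the only member whose libraries stepped down without overlap at both intervals (−1.45 ± 0.23, adjusted p = 1.74e-06).

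Gm26890 (chr7:19597293-19602294, minus strand) measured 3.57, 3.68 and 1.94 CPM at day 0, 2.56, 2.04 and 2.66 CPM at day 4 and 0.951, 0.562 and 1.47 CPM at day 7 (−1.26 ± 0.27, adjusted p = 2.98e-04), below both earlier stages. Gm26890 met the limit of 1 CPM only through its day 0 libraries. So did Gm3830 and Gm26888, with means close to the limit, which fell by 0.94 and 0.85 on the log2 scale (adjusted p = 0.0108 and 0.0223). The call of Gm3830 was lost without day 0 replicate 1 (−0.81) or 2 (−0.77), and that of Gm26888 without day 0 replicate 1 (−0.70) or 2 (−0.76), or without either of the day 7 replicates 1 (−0.80) and 2 (−0.70). Gm29340 (chr2:116972575-116976428, minus strand) measured 20.9, 20.5 and 20.7 CPM at day 0, 1.61, 1.82 and 1.55 CPM at day 4 and 2.27, 26.3 and 17.02 CPM at day 7. The even values at day 0 and day 4 contrast with day 7, where a single library lay near the day 4 level. Its call of −0.96 ± 0.34 (adjusted p = 0.0286) rested on that library: the log2 fold change was 0.03 without day 7 replicate 1, and the call was lost without day 0 replicate 3 (−0.96).

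**Figure D3:**
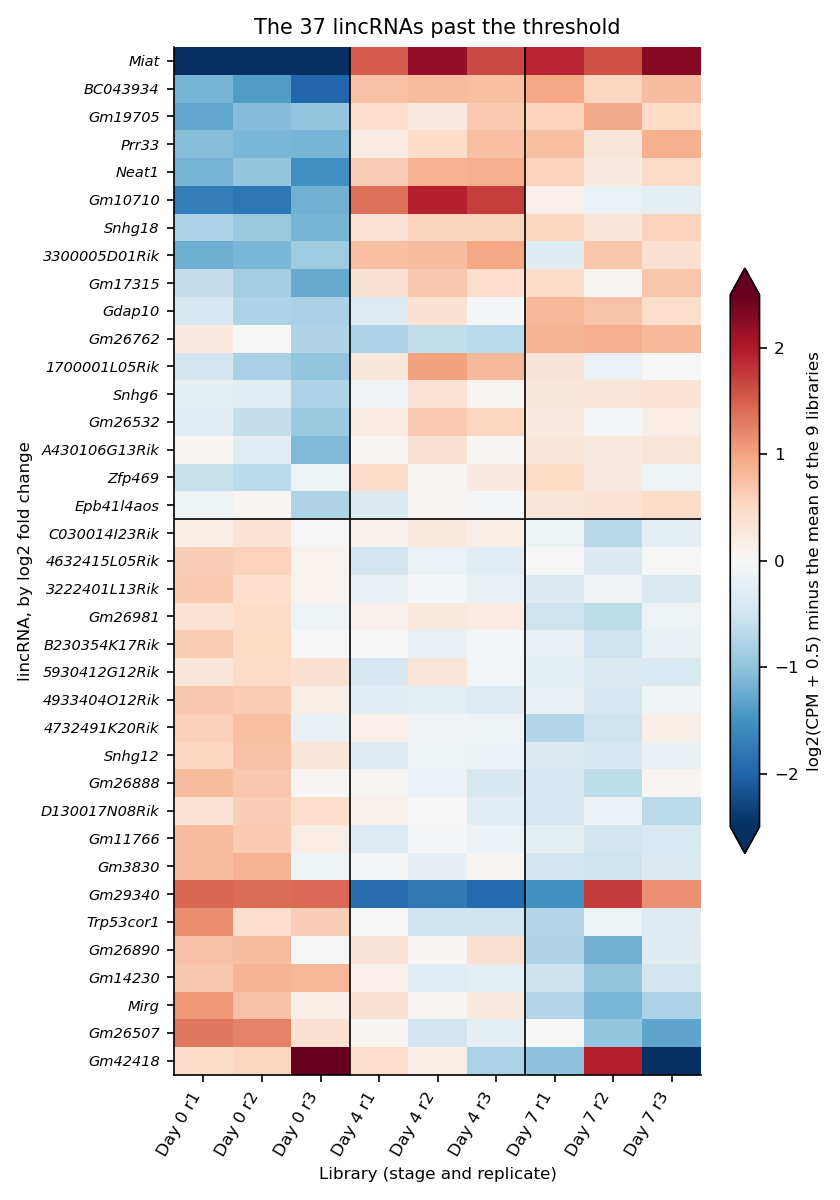
Heat map of the 37 lincRNAs past the threshold (rows, from the largest rise to the largest fall) in the 9 libraries (columns, by stage and replicate). Color gives log2(CPM + 0.5) minus the row's mean over the 9 libraries, and most rows that rose from day 0 to day 7, such as Miat and BC043934, are already red at day 4, whereas Gm26762 is highest at day 7. BC043934, Gm19705, Gm17315 and Gm10710 met the limit of 1 CPM only through day 7, which favored a rise. Gm26890, Gm26888 and Gm3830 met it only through day 0, which favored a fall.

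Day 4 lies in a table of its own with deeper libraries, so it was compared by direction without a test. All day 4 libraries lay above those of day 0 in 33 of the 138 members with day 4 values, and below them in 20. Of all 139 members these were 23.7% and 14.4%, against 21.1% and 22.2% of all genes. From day 4 to day 7, 10 members were higher in every library (7.2%, against 13.8% of all genes) and 37 were lower (26.6%, against 24.6%). By mean RPKM, 74 members were higher at day 4 than at day 0 and 43 were higher at day 7 than at day 4. The highest mean CPM was at day 4 in 57. Without day 0 replicate 3, only 59 of the 138 members were higher at day 4 than at day 0. For these counts by means, and for the combined courses below, no share over all genes was computed. Genes named below for their course were, where not met above, chosen after their values were seen.

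Of the 33 members above day 0 at day 4, 18 overlapped between day 4 and day 7, as Miat, Snhg6, Snhg18 and Carmn did, and 14 were lower again at day 7, as Neat1, Mir17hg, Tmem250-ps and Bvht were. Gdap10 alone stepped up at both intervals, with 3.64, 2.68 and 2.58 CPM at day 0, 3.87, 6.56 and 4.74 CPM at day 4 and 9.002, 8.43 and 6.84 CPM at day 7 (1.31 ± 0.22, adjusted p = 3.79e-06). A further 7 members overlapped between day 0 and day 4 and lay above day 4 at day 7, and in 5 of them day 7 lay above day 0 as well. Epb41l4aos and Lncpint were among these, as was Gm26762 with 4.35, 3.59 and 1.94 CPM at day 0, 1.89, 2.17 and 2.05 CPM at day 4 and 6.81, 7.11 and 6.65 CPM at day 7 (1.01 ± 0.23, adjusted p = 5.27e-04). In turn, 17 members were lower at day 4 and then overlapped with day 7, as Snhg12 and Trp53cor1 did. Another 22 overlapped between day 0 and day 4 and were lower at day 7 than at day 4. In 6 of these, such as Mirg, day 7 also lay below day 0, and in the other 16, such as Malat1 and 1700020I14Rik, it overlapped with day 0. Gm29340 and Gm26798 were lowest at day 4, and 56 members overlapped at both intervals.

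In the GENCODE M21 annotation of GRCm38, 138 members had a record, 131 of them still as lincRNA. Of these, 48 overlapped a protein-coding gene, 26 started within 5 kb of one in the opposite direction, 8 lay within 5 kb downstream on the same strand, 14 lay within 5 kb in another position and 42 lay farther away. The counts of members that rose and fell were 7 and 5 among those overlapping a gene, 1 and 3 among the divergent ones, 1 and 1 among those downstream, 3 and 4 among those in another position, and 5 and 7 among those farther away. Over all genes tested, 12.6% rose and 18.6% fell, and whether any position differs from these shares was not tested. The neighbour of a member was the protein-coding gene it overlapped, the first by symbol where there were several. For the other positions within 5 kb it was the nearest gene in that position. For 85 members the neighbour was tested too. Of 22 members past the threshold with a tested neighbour, the neighbour passed in 11, in the same direction in 10 of them, and did not pass in the other 11. Of all 85 neighbours 22 passed (25.9%), of those next to members that did not pass 11 of 63 (17.5%), and of all genes tested 31.2%.

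Across the 40 pairs in which the lincRNA overlapped the gene, the 2 log2 fold changes had the same sign in 28 (Spearman's rho 0.578), against 15 of 26 divergent pairs (rho −0.127). These correlations are across genes that share libraries and, where exons or introns overlap, could share reads, since the sources used here do not state whether counting used the strand. The pairs named next were chosen after their values were seen, apart from Gm26507 and Prr33. Gm17315 rose with Cdc42ep3 (1.32 ± 0.29 and 2.12 ± 0.17), but it met the limit of 1 CPM only through its day 7 libraries, which favored a rise. Gdap10 rose with Nampt (both 1.31), and Gm26762 with Gpi1 (1.01 ± 0.23 and 1.08 ± 0.15), which makes glucose phosphate isomerase of glycolysis. 5930412G12Rik fell with Fzd10, a Wnt receptor (−0.71 ± 0.26 and −1.54 ± 0.25).

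The course of the members and their neighbours still differed in places. Gm26762 was lower at day 4 than at day 7 in each library, whereas Gpi1 measured 139, 147 and 126 CPM at day 0, 212, 315 and 272 CPM at day 4 and 309, 303 and 262 CPM at day 7. The opposite direction was found for Epb41l4aos, which rose by 0.65 while Epb41l4a fell by 0.75 on the log2 scale (adjusted p = 0.00124). Snhg12 fell while Trnau1ap had 0.02 ± 0.17 (adjusted p = 0.958), and Gm14230 fell while Tgif2 had −0.22 ± 0.26 (adjusted p = 0.574).

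**Figure D4:**
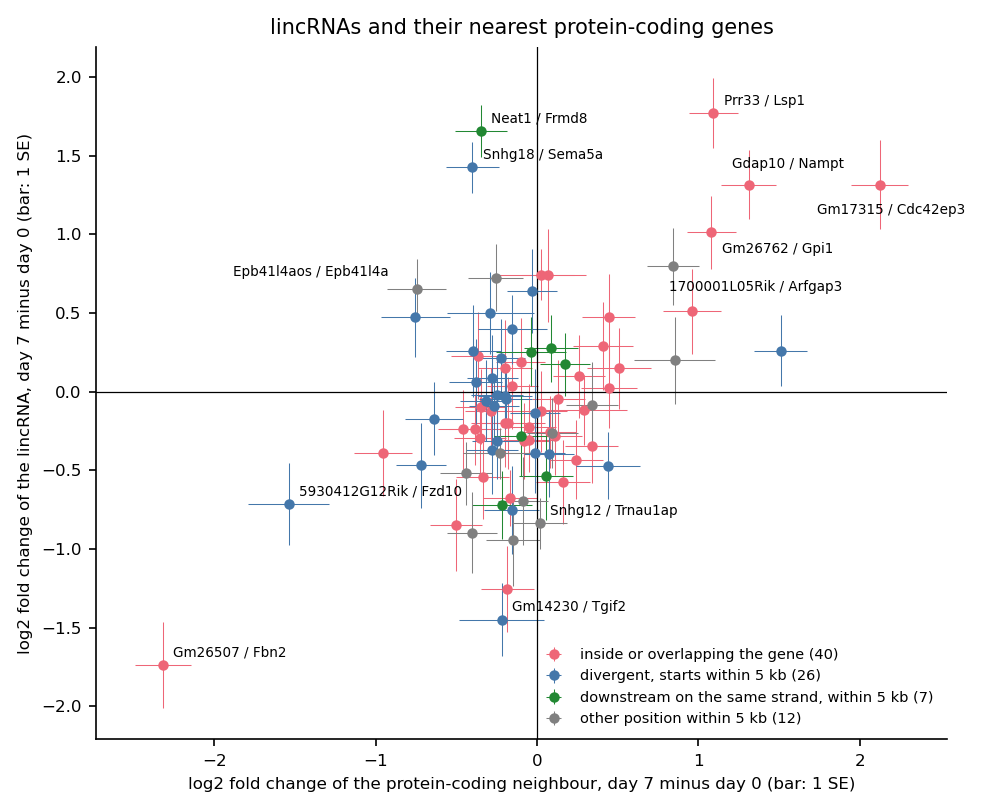
Change of 85 lincRNAs between day 0 and day 7 (vertical axis, log2 fold change) against that of their protein-coding neighbour (horizontal axis). Bars are 1 SE, and color gives the position (40 overlapping, 26 divergent, 7 downstream, 12 other). Overlapping pairs such as Gm17315 with Cdc42ep3 and Gm26507 with Fbn2 lie at the far ends of the diagonal. Gm17315 met the limit of 1 CPM only through day 7. Neat1, Snhg18 and Epb41l4aos lie at the upper left.

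The members differed widely in level and in their gene models. Of the 139, 5 had a mean of 100 CPM or more, 16 had 10 to 100, 63 had 2 to 10 and 55 had less than 2. The median of the mean CPM was 2.85 against 24.9 over all genes tested, and the median of the mean RPKM was 1.14 against 6.61 over 12107 protein-coding genes tested. By mean RPKM over the 6 libraries, the order was Gm42418, Malat1 (1101), Snhg6 (51.3), Snhg12 (38.5), Epb41l4aos (38.1), Neat1 (34.5), Snhg18 (32.2), Tmem250-ps (18.9), 1810058I24Rik (16.2) and 1700020I14Rik (13.9), so that most of the leading members were nuclear body RNAs or snoRNA hosts. Tmem250-ps measured 49.3, 45.3 and 36.5 CPM at day 0, 65.4, 62.3 and 61.1 CPM at day 4 and 49.3, 49.2 and 51.9 CPM at day 7, highest at day 4 (0.21 ± 0.16 at day 7, adjusted p = 0.354). 1810058I24Rik had 49.8, 56.2 and 44.5 CPM at day 0 and 46.5, 36.6 and 36.8 CPM at day 7, and the stages overlapped (−0.33 ± 0.16, adjusted p = 0.126). Of the 21 members at 10 CPM or more, 5 rose and 5 fell (23.8% each), and of the 55 below 2 CPM, 3 rose and 5 fell (5.5% and 9.1%). Over all genes tested, which were not split by level, 12.6% rose and 18.6% fell. The 3 rises below 2 CPM (Gm19705, Gm17315 and Gm10710) were in members that met the limit of 1 CPM only through day 7. The falls of Gm26888 and Gm3830 were in members that met it only through day 0.

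Exonic lengths ran from 404 bases in Gm13067 to 20771 in Neat1, with a median of 2713, and 21 members had a single merged exon. The median GC content was 47.9%. An exon of another gene overlapped on the opposite strand in 58 members and on the same strand in 13. Among the 73 members that overlapped no other exon, 10 rose and 12 fell (13.7% and 16.4%, against 12.6% and 18.6% of all genes tested). Of the 138 members with a record, all but 46 shared at least 1 stretch of 50 exonic bases with another gene, and 19 shared more than 20% of them. Either strand counted, and so did genes that overlap the member, so these shares do not separate overlap from copies elsewhere.

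Gm42418 was the most abundant member by far and the least like the others. It is a single exon of 1831 bases (chr17:39846958-39848788, plus strand), for which RefSeq gives a synonym of a ribosomal RNA related sequence. Of its stretches of 50 bases, 94.9% also occur in other genes. AY036118 and CT010467.1, which overlap it on the opposite strand, count among these genes. Its level was 29371, 30371 and 119626 CPM at day 0, 28347, 23590 and 12054 CPM at day 4 and 10249, 81172 and 1099 CPM at day 7. The day 0 libraries, and likewise the day 7 libraries, differed among themselves by more CPM than the means of the stages did. The fitted log2 fold change of −2.29 ± 0.61 passed (adjusted p = 0.00267), but day 0 and day 7 overlapped, the exact permutation test over libraries gave p = 0.5, and the call held in 9 of 19 other settings. Leaving out day 0 replicate 3 (−1.62) or day 7 replicate 3 (−0.72) ended it.

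The library RNA was depleted of ribosomal RNA before sequencing, and other rows moved with Gm42418. The ratio of Gm42418 to Lars2 stayed between 2.57 and 4.15 over the 9 libraries, that to Mir6236 between 5.65 and 9.26 and that to Gm15564 between 4.82 and 10.4, while that to the mitochondrial ribosomal RNA mt-Rnr1 varied more, from 10.2 to 37.5, and that to Gm26917 ran from 0.261 to 19.2. Summed over all members, the lincRNAs took 4.01%, 4.07% and 12.6% of CPM at day 0, 3.97%, 3.55% and 2.48% at day 4 and 2.03%, 9.001% and 1.16% at day 7, and the exact permutation test of day 7 against day 0 gave p = 0.5. Without Gm42418 the sums were 10711, 10323 and 6579 CPM at day 0, 11395, 11912 and 12785 CPM at day 4 and 10075, 8838 and 10477 CPM at day 7 (exact permutation p = 0.9). Without Malat1 and Neat1 as well, the other 136 members summed to 1208, 1154 and 829 CPM, 1196, 1290 and 1218 CPM, and 1162, 1047 and 1167 CPM at the 3 stages. When both libraries highest in Gm42418, day 0 replicate 3 and day 7 replicate 2, were left out, 16 members were higher and 24 lower, and 35 of the 37 calls remained in the same direction. The share of calls over all genes was not computed for that setting.

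**Figure D5:**
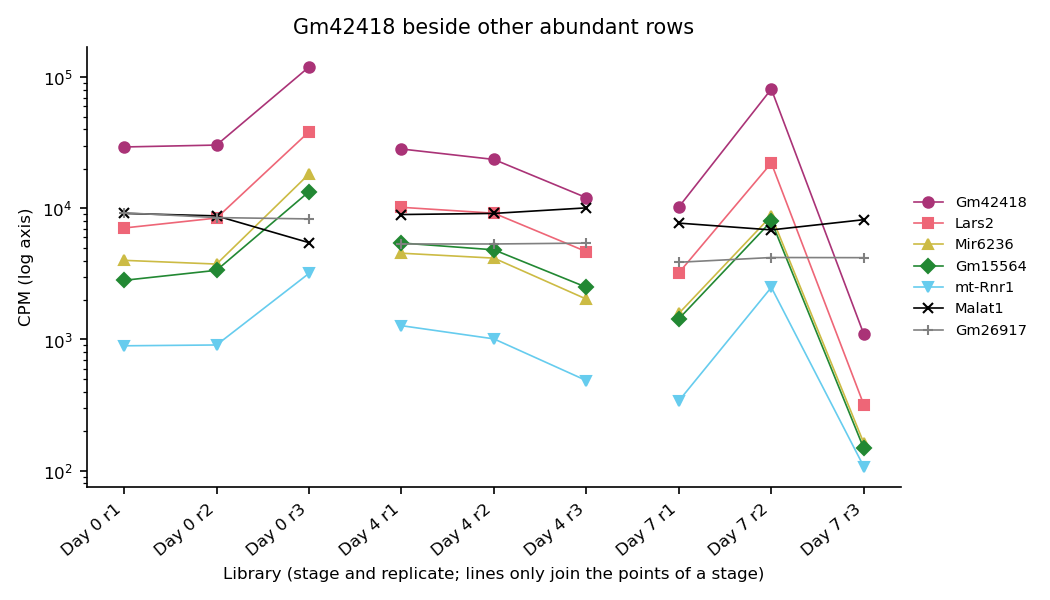
CPM (log axis) of Gm42418, Lars2, Mir6236, Gm15564, mt-Rnr1, Malat1 and Gm26917 in the 9 libraries, with lines joining the libraries of a stage. Gm42418 runs from 1099 CPM in day 7 replicate 3 to 119626 CPM in day 0 replicate 3, and Lars2, Mir6236 and Gm15564 follow it closely and mt-Rnr1 less so, while Malat1 and Gm26917 do not.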

How the data were processed

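RNA of calvarial cells at day 0, day 4 and day 7 (3 libraries each) was depleted of ribosomal RNA with Ribo-Zero Gold. According to the methods and the submitters' processing notes, the authors aligned reads to GRCm38 (Ensembl 76) with STAR 2.0.4b and counted them per gene with featureCounts, and whether the strand was used is not given in the sources used here. The authors deposited CPM, scaled to a library's total reads on genes, and RPKM, scaled to gene length as well, with day 0 and day 7 in shared tables and day 4 apart. Repeated lines of a gene were used once. In each library 100% of CPM values were whole multiples of 1 read within 0.01, so reads were recovered. The main test was planned for CPM, the deposited unit, and methods for counts were run on the recovered reads as alternatives. It was limma (version 3.58.1, under R 4.3.3, trend of variance with level allowed) applied to log2(CPM + 0.5). The test covered 12712 genes whose mean reached 1 CPM, with Benjamini-Hochberg adjustment and a threshold of 0.05. Fold changes on this scale understate those of low genes. The limma fit was tested on simulated data. Day 4 entered no test. No interval or floor was needed beyond the reads given, which cover counting error only.

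Positions, exon overlap, neighbours and hosted snoRNA and microRNA genes come from GENCODE M21 (GRCm38), and microRNA sequences from RefSeq (GRCm38.p6). The tables pair a symbol with each identifier, and day 4 was joined by identifier. The alternatives were pseudocounts of 0.1 and 1, all genes with reads, the RPKM table, median-of-ratios scaling, TMM with voomWithQualityWeights, edgeR 4.0.16 and DESeq2 1.42.0 on recovered reads, library weights, robust variances, a replicate block, leaving out each library and, chosen after seeing the data, library totals without Gm42418 and leaving out both libraries highest in it. The members and lists were chosen with earlier results of these data known. The text names members in lists by role, hosts of snoRNA or microRNA genes, the 10 with the highest mean RPKM, the 8 largest rises and 8 largest falls past the threshold, the 3 genes on either side of 1 CPM, the largest rise and fall of each partner list and near neighbours. Any further gene was picked with its values in view. Some items that this rule would name are not reported here. Adipocyte (2 tested), neural and glial (3 tested) and Pumilio (2 tested) genes did not pass, 3 of 4 osteoclast, 2 of 6 chondrocyte and 2 of 2 muscle markers were higher and 1 osteoclast and 3 chondrocyte markers lower, and 6 of 7 mitochondrially encoded genes were higher, as were 3 of 6 abundant small RNAs, with 1 lower.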

Additional observations from a re-analysis of the deposited data

How the results depend on the processing

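The count of 17 higher members became 29 with TMM and voomWithQualityWeights, 28 with median-of-ratios scaling, 30 with library quality weights and 10 of the 73 members with no exon overlap (13.7%, against 12.2% of all members), and ranged from 13 to 19 when a library was left out. The count of 20 lower members became 12 with DESeq2, 11 over all genes with any reads, 46 with library quality weights and 12 of the 73 with no exon overlap (16.4%, against 14.4%), and ranged from 11 to 30 when a library was left out. Shares of calls over all genes were computed only for the main fit and median-of-ratios scaling. For the other settings, a shift of the members cannot be told from a shift of all genes. The 47 members whose stages did not overlap became 52 to 74 without a day 0 or day 7 library, where fewer libraries separate more easily. The summed CPM differed by −28357 between day 7 and day 0, but was 592 higher without Gm42418 and 377 higher with Gm42418 also out of the library totals, and ranged from −53044 to 248 when a library was left out. Deviations of same-numbered libraries from their stage means correlated by −0.017, −0.181 and −0.444, and none was closest to its own number. With so few libraries per stage, these correlations cannot decide whether the replicate numbers pair the libraries. The replicate block gave 18 higher and 18 lower members. The lone lower snoRNA host and the day 4 directions (59 to 87 members above day 0 and 37 to 54 above day 4) kept within 1.5 times their counts.

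Of 722 values of the 38 named members under other settings, 618 kept direction and call, 32 lost a call, 39 gained one and 33 changed sign, in 9 members. None of the sign changes ended in a call, and 1 was of a called member, Gm29340 without day 7 replicate 1. With DESeq2, edgeR, median-of-ratios scaling and TMM with voomWithQualityWeights, Malat1 became 0.096, 0.093, 0.10 and 0.059 and Ftx 0.084, 0.085, 0.066 and 0.19. Library quality weights gave 0.12 for Ftx, −0.11 for 6720427I07Rik and −0.24 for 2700038G22Rik, which was −0.0084 with TMM and voomWithQualityWeights. Library totals without Gm42418 gave −0.0042 for 6720427I07Rik. Without both libraries highest in Gm42418, Ftx became 0.013, 2700038G22Rik −0.17, 6720427I07Rik −0.29, Mir17hg −0.16 and Pvt1 −0.028. Leaving out 1 library gave −1.60 to 0.033 for Gm29340, −0.24 to 0.13 for Malat1, −0.13 to 0.065 for Ftx, −0.36 to 0.31 for 6720427I07Rik, −0.086 to 0.25 for Dancr, −0.34 to 0.57 for Mir17hg, −0.22 to 0.28 for 2700038G22Rik, −0.070 to 0.22 for Pvt1 and −0.66 to 0.012 for E130102H24Rik. The cause of these differences between settings was not tested.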
